A study of Cavia porcellus with 12 samples.

Results

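The let-7 members outside let-7a and let-7f were followed here, that is the human precursors hsa-let-7b, hsa-let-7c, hsa-let-7d, hsa-let-7e, hsa-let-7g, hsa-let-7i and hsa-mir-98, in small RNA of ventricular cardiomyocytes from the guinea pig. A row of a deposited table gives a start position on a human precursor, the sequence of the small RNA and the precursor's name, and is called an entry. Every entry whose name ended exactly in 1 of the 7 precursors was taken, which gave 108 of 2449 distinct entries and 7 of the 289 human precursors with an entry. Entries whose start positions lay more than 15 bases apart on a precursor were assigned to its 5p and 3p arms, with 74 entries in the 5p and 34 in the 3p arms.

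Cells of adult female Hartley guinea pigs, isolated by retrograde perfusion and enzymes, received 10 µM doxorubicin (DOX), an anthracycline used against cancer, or its vehicle dimethyl sulfoxide (DMSO) for 1 h or 22 h at room temperature. The labels give 12 libraries, 3 each of DMSO 1 h, DOX 1 h, DMSO 22 h and DOX 22 h, and do not say whether replicates came from separate animals. The cells were freshly isolated and not a line, and reads were assigned to human rather than guinea pig precursors. RNA was taken from many cells together, so fewer cells of a type and less of an RNA per cell cannot be told apart.

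The let-7 miRNAs are among the most conserved miRNAs of animals. Each precursor is a hairpin that is cut by Drosha and Dicer, and its 5p arm usually gives the strand that is kept in Argonaute and pairs with target mRNAs through the seed near its 5′ end, while the 3p strand is mostly degraded. The members share their seed and differ toward the 3′ end. They are known for marking differentiated cells, and LIN28 blocks the maturation of many of them. Several lie in genomic clusters with other miRNAs, such as let-7c with miR-99a and let-7e with miR-99b and miR-125a.

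The most abundant 5p sequence of each member is shown first, because these sequences define what is compared. They are printed 5′ to 3′ as deposited, with capitals at each base that differs from the let-7c sequence.
let-7c 5p: aggtagtaggttgtatggtt
let-7b 5p: aggtagtaggttgtGtggtt
let-7d 5p: aggtagtaggttgCatAgtt
let-7e 5p: aggtagGaggttgtatAgtt
let-7g 5p: aggtagtagTttgtaCAgtt
let-7i 5p: aggtagtagTttgtGCTgtt
miR-98 5p: aggtagtaAgttgtatTgtt
Counted from 1 at the 5′ end of these sequences, with the let-7c base first, let-7b differed by A15G alone, let-7d by T14C and G17A, let-7e by T7G and G17A, and miR-98 by G9A and G17T. The most distant from let-7c were let-7g, with G10T, T16C and G17A, and let-7i, with G10T, A15G, T16C and G17T. All 7 began with the same 6 bases, as did 70 of the 74 5p entries, and the other 4 entries had another start position. The leading form was 20 bases long for every member, and no human entry in any table was longer than 21 bases. Mature let-7 is known to begin a little upstream of the first base printed here, and no reference of mature sequences was used, so lengths, positions and start shares are those of the deposited sequences and whether these were trimmed was not tested.

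The 3p arms were more diverse, and their most abundant sequences are shown because several of the entries that differed most between libraries came from them.
let-7b 3p: atacaacctactgccttcct
let-7c 3p: gtacaaccttctagctttcc
let-7d 3p: atacgacctgctgcctttct
let-7e 3p: atacggcctcctagctttcc
let-7g 3p: gtacaggccactgccttgc
let-7i 3p: gcgcaagctactgccttgct
miR-98 3p: atacgacttactactttcct
That of let-7g was 19 bases long, and the others were 20 bases long. Each 3p form shown was the most abundant of its arm in all 3 tables, as was each 5p form above.

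Levels are the authors' means of normalized reads, averaged over the libraries of a table, and they carry no SD or n because the columns used here hold none per library. The 3 tables cover DMSO 1 h and DOX 1 h, DMSO 22 h and DOX 22 h, and DOX 1 h and DOX 22 h. The members' means summed to 161816, 114055 and 150689 in that order, which was 2.75%, 2.39% and 2.51% of the sum over all entries. The tables were normalized separately, so their levels stand side by side and are not compared by a test.

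The most abundant member was let-7g, whose arms together summed to a mean of 72684 at 1 h, 51541 at 22 h and 68799 in the DOX table. Next came let-7i, with 52639, 38079 and 48047. Both were several times above let-7d, which summed to 14904, 10799 and 14397. The remaining 4 members were lower again. For let-7c the sums were 7435, 4847 and 7134. The values of let-7e and let-7b lay close together, at 6537, 3903 and 5736 for let-7e and at 6334, 3949 and 5322 for let-7b. At the bottom stood miR-98, with 1284, 938 and 1255. From let-7g down to let-7c the order was the same in the 3 tables, and only let-7e and let-7b changed places, at 22 h.

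**Figure D1:**
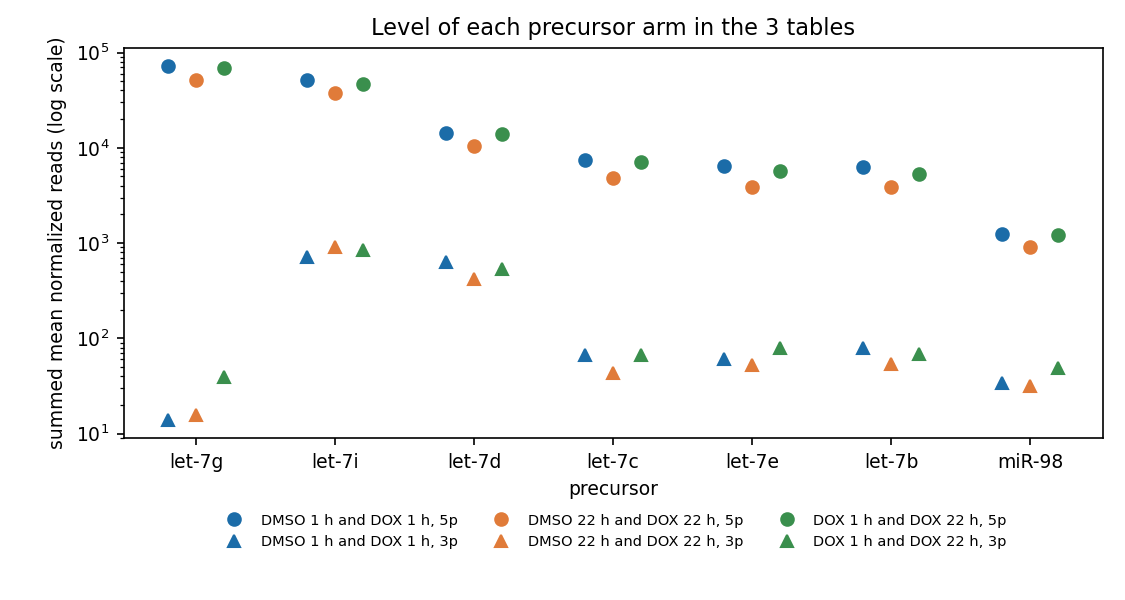
Summed mean normalized reads on a log axis for each precursor (x axis), with circles for the 5p and triangles for the 3p arm and 1 colour per table. The circles step down from let-7g to miR-98, except that let-7b is just above let-7e at 22 h, while the triangles follow another order, with let-7i and let-7d highest and let-7g lowest in each colour.

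The 5p arm was the abundant arm of all 7 members. The share of the 3p arm in a member's summed mean was lowest in let-7g, at 0.0190% at 1 h, 0.0303% at 22 h and 0.0564% in the DOX table. It was highest in let-7d, at 4.23%, 3.86% and 3.72%, and in miR-98, at 2.64%, 3.36% and 3.84%. The level of the 3p arm therefore did not follow that of the 5p arm. The 3p arm of let-7i, with summed means of 719, 906 and 841, was the highest of the 7, and that of let-7g, the most abundant 5p arm, was at 13.8, 15.6 and 38.8. For let-7g and miR-98 the 3p sum held 1 entry at 1 h and at 22 h but 4 in the DOX table. The leading let-7g 3p entry alone was at 22.7 there. With only entries of a mean of at least 10, the 5p over 3p ratio of miR-98 in the DOX table went from 25.0 to 41.2.

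The forms of the 5p arm differed at the 3′ end more than at the 5′ end. Over the 7 members in the DOX table, the leading forms held 70.4% of the summed 5p mean, shorter forms of the same start 17.7%, forms with 1 T added 8.58% and forms with 1 A added 2.81%, while other starts held 0.0080%. At 22 h the leading forms held 69.7%, and at 1 h also 69.7%. No precursor sequence was used here, so whether an added base is encoded by the precursor was not tested.

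Members differed in these forms. The leading form held 77.0% of the 5p mean of let-7g in the DOX table, 70.7% of that of let-7d, 70.6% of that of miR-98, 66.9% of that of let-7i and 65.8% of that of let-7c. It held least in let-7e, at 52.2%, and in let-7b, at 40.6%. In let-7b the form with 1 T added came close to it, with 30.9%, and forms with 1 A added were given a mean in let-7b, let-7e and let-7i alone, at 6.50%, 5.73% and 7.45%. The 4 forms of let-7i that held nearly all of its 5p mean are printed because let-7i held the largest A-added share, with the added base in capitals.
let-7i, shorter: aggtagtagtttgtgctgt
let-7i, leading: aggtagtagtttgtgctgtt
let-7i, T added: aggtagtagtttgtgctgttT
let-7i, A added: aggtagtagtttgtgctgttA
Their means in the DOX table were 4200, 31577, 7896 and 3518. In let-7g no leading form with a base added had a mean in any table, and that with 1 T added was listed at 1 h without a mean that could be restored. In the other 6 members the form with 1 T added took between 6.84% and 30.9% of the 5p mean of the DOX table.

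**Figure D2:**
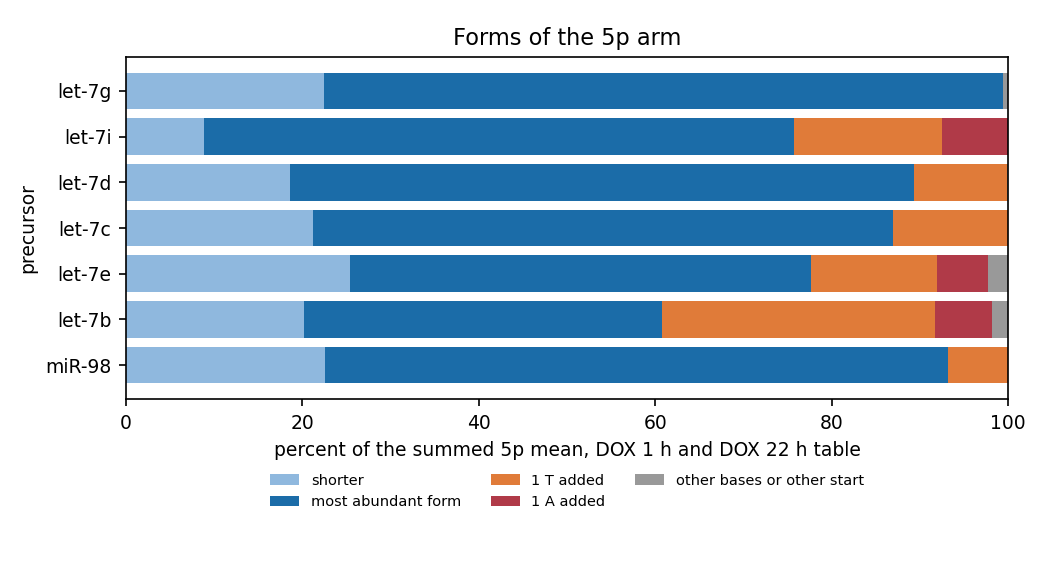
Percent of the summed 5p mean of the DOX 1 h and DOX 22 h table (x axis) that each form holds in each precursor (y axis). The leading form is the widest bar in all 7, from 40.6% in let-7b to 77.0% in let-7g, and the A-added form is visible in let-7i, let-7e and let-7b.

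Values for separate libraries were recovered for 3 of the 12. The names of predicted miRNAs in the files state that the 22 h table compares replicate 1 of DOX 22 h with replicate 1 of DMSO 22 h and the DOX table replicate 1 of DOX 22 h with replicate 1 of DOX 1 h. In both tables each mean is a whole-number combination of the reads of 2 libraries, and the DOX 22 h reads must be the same in both. Of 1323 entries with a mean in both tables, 1216 had 1 solution in whole reads, among them 56 of the 61 member entries. The 5 entries with more than 1 solution are among the most abundant, namely the leading forms of let-7g, let-7i and let-7d, the let-7g form lacking the last T and the let-7i form with 1 T added. For the 1 h table no such combination was found, so DOX and DMSO at 1 h were not compared.

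With 1 library a side there is no replicate error and no test. Each comparison below is a ratio of reads scaled by the size factors in the authors' means, with 0.5 added to each read count, and the 95% interval is an exact Clopper-Pearson interval that covers counting error only. A ratio was counted as past 2-fold where the 2 libraries together held at least 20 reads. The 2 comparisons share the DOX 22 h library and are not independent.

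Replicate 1 of DOX 22 h had fewer scaled reads than replicate 1 of DOX 1 h in the solved part of each 5p arm, whereas the 3p arms stood near or above the DOX 1 h level. That part was the whole 5p mean of let-7b, let-7c, let-7e and miR-98, while let-7d, let-7g and let-7i were solved in part only, and the ranges given here include an assumed solution for 3 of their entries. The 5p ratios ranged from 0.719 in let-7e to 0.915 in let-7i, 7 of 7 below 1, or from 0.719 to 0.927 without the assumed solution, and the 3p ratios from 0.989 in let-7d to 1.64 in miR-98, with 1 of 7 below 1. Over all 315 arms with at least 20 reads, 51.4% were below 1 and the median ratio was 0.993, with the central 90% between 0.683 and 1.69. The 5p ratios of let-7e and let-7c lay toward the low end of that range. Of the 14 member arms, 0 were past 2-fold, beside 14 of all 315 arms. Time in culture and time with DOX were the same in this comparison and cannot be told apart.

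The leading 5p form of let-7e had 3928 reads in DOX 1 h and 2155 in DOX 22 h, a scaled ratio of 0.705 (95% interval 0.669 to 0.744). For let-7c the leading form had 5962 and 3560 reads, with a ratio of 0.768 (0.736 to 0.800). That of let-7b had 2612 and 1731 reads, with a ratio of 0.852 (0.801 to 0.906). These 3 intervals lay below 1, and so did that of miR-98, with 1064 and 674 reads and a ratio of 0.815 (0.738 to 0.898). Summed over the arm, the 5p ratio was 0.719 (0.692 to 0.747) for let-7e, 0.771 (0.745 to 0.797) for let-7c, 0.843 (0.811 to 0.877) for let-7b and 0.870 (0.801 to 0.945) for miR-98, and all entries of these 4 arms were solved.

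For let-7d, let-7g and let-7i the solved entries held 29.1%, 5.12% and 16.4% of the 5p mean, and their ratios were 0.832 (0.796 to 0.870), 0.779 (0.742 to 0.817) and 0.927 (0.898 to 0.957). Of the entries with several solutions, 3 had only 1 whose ratios lay inside the range of the solved entries with at least 1000 reads, 0.641 to 1.61 for DOX 1 h and 0.304 to 1.70 for DMSO 22 h. Taking that solution is an assumption. It gave the leading form of let-7d 12259 reads in DOX 1 h and 7758 in DOX 22 h, and raised the share of the 5p mean with reads to 100% in let-7d, 23.0% in let-7g and 33.1% in let-7i. The arm ratios became 0.819 (0.799 to 0.839), 0.861 (0.842 to 0.880) and 0.915 (0.894 to 0.935). The leading forms of let-7g and let-7i still had 2 possible solutions each and were left out, so the ratios of these 2 arms rest on their minor forms. Those of let-7g include a sequence that is also the T-added form of let-7i. Under let-7g it had 545 reads in DOX 1 h and 290 in DOX 22 h, with a ratio of 0.685.

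Among the 3p arms, let-7i was the best covered, with 830 reads in DOX 1 h and 838 in DOX 22 h, a ratio of 1.30 (1.18 to 1.43). Its interval was the only one of the 7 in this comparison that left out 1. The other 3p arms had 22 to 602 reads in DOX 1 h, and their intervals included 1. Within a member the 3p ratio was above the 5p ratio in 7 of 7 members. Among 86 other precursors with both arms covered, the less abundant arm had the higher ratio in 49, or 57.0%. The 3p ratio was also the higher in let-7a and let-7f precursors with both arms covered, so this was not particular to the members. With the assumed solution, let-7a-1 had 1.01 against 0.800 and let-7a-3 0.908 against 0.794. For let-7f-1 the ratios were 1.39 and 0.863, and for let-7f-2 1.55 and 0.848. As a share of all reads of the precursor, the 3p arm of miR-98 went from 1.71% in DOX 1 h (1.11% to 2.51%) to 3.18% in DOX 22 h (2.19% to 4.46%), and that of let-7b from 0.968% (0.745% to 1.24%) to 1.52% (1.17% to 1.93%). The shares of let-7e, 0.907% (0.705% to 1.15%) and 1.33% (1.01% to 1.72%), and of let-7c, 0.637% (0.484% to 0.823%) and 0.859% (0.632% to 1.14%), were also higher in DOX 22 h, and for each of these 4 members the 2 intervals overlapped. In DMSO 22 h the shares were likewise above those of DOX 1 h. They were 3.54% for miR-98, 1.18% for let-7b, 1.36% for let-7e and 0.912% for let-7c.

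At the level of entries, 55 of the members had at least 20 reads in DOX 1 h and DOX 22 h together. Of these, 2 were at least 2-fold higher in DOX 22 h and 3 at least 2-fold lower, or 3.64% and 5.45%, where over all 1190 entries 5.21% were higher and 1.68% lower. The median log2 ratio of the 55 entries was -0.23, with 38 below 0, and over all entries it was 0.04. The interval left out 1 for 29 of the 55, with 26 below 1 and 3 above. No share over all entries is given for this count, so it is not read as a trait of the members. All 5 entries past 2-fold were rare ones, with at most 62 reads in both libraries.

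The entries past 2-fold were short or variant ends. The largest ratio was that of a miR-98 5p form 2 bases shorter than the leading one, with 8 reads in DOX 1 h and 21 in DOX 22 h, a ratio of 3.25 (1.44 to 8.81). A let-7e 3p form without the last base had 10 and 24 reads and a ratio of 3.0 (1.42 to 7.23). Lower in DOX 22 h were 2 forms of the let-7e 5p arm, shown with capitals where they differ from its leading form, and 1 of let-7b.
miR-98 5p, higher: aggtagtaagttgtattg
let-7e 3p, higher: atacggcctcctagctttc
let-7e 5p, lower: aggtaggaggttgtata
let-7e 5p, lower, T end: aggtaggaggttgtataT
let-7b 5p, lower: aggtagtaggttgtgtAA
The shorter let-7e form had 48 reads in DOX 1 h and 14 in DOX 22 h, with a ratio of 0.384 (0.191 to 0.692), and the form ending in T had 33 and 12 reads, with a ratio of 0.480 (0.220 to 0.929). The let-7b form had 22 and 8 reads and a ratio of 0.486, with an interval that included 1 (0.180 to 1.09). The let-7e 3p form without the last base made up 14.7% of the reads of its arm in DOX 1 h (7.28% to 25.4%), 42.9% in DOX 22 h (29.7% to 56.8%) and 24.5% in DMSO 22 h (13.3% to 38.9%).

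**Figure D3:**
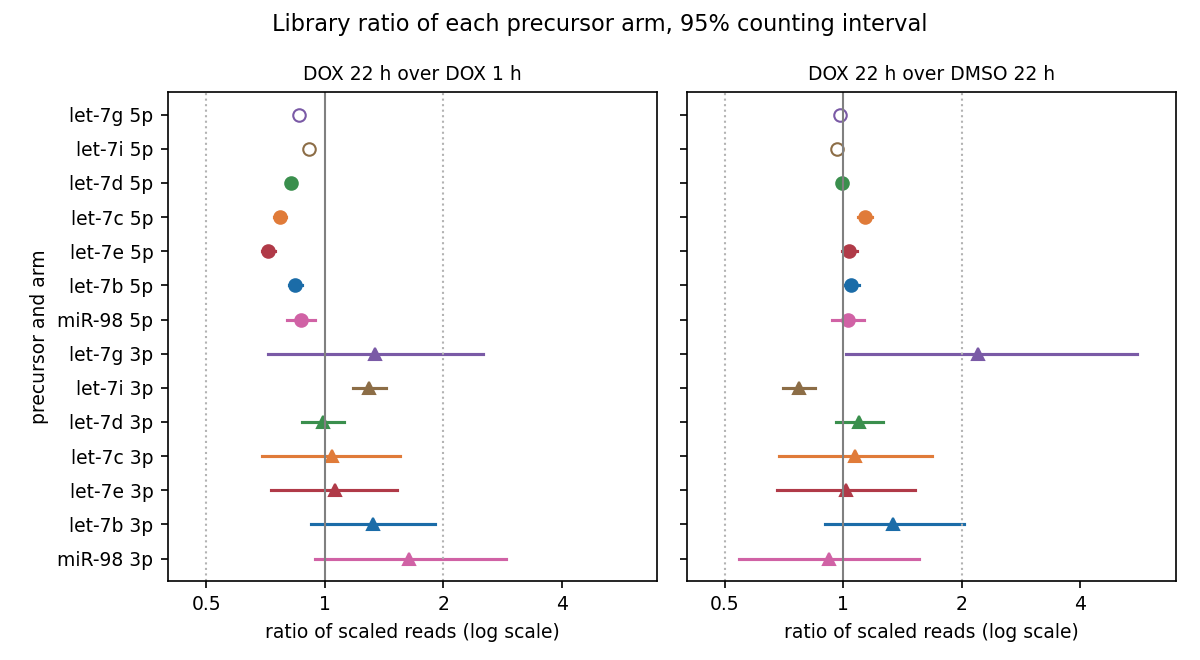
Ratio of scaled reads (x axis, log scale) for each precursor arm (y axis) in DOX 22 h over DOX 1 h (left) and DOX 22 h over DMSO 22 h (right), with 95% counting intervals; open circles mark arms whose leading form was not solved, the 5p arms of let-7d, let-7g and let-7i include the assumed solution, and dotted lines mark 2-fold. The 7 circles on the left lie between 0.719 and 0.915, while those on the right lie between 0.963 and 1.14.

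Replicate 1 of DOX 22 h and replicate 1 of DMSO 22 h, which differ in DOX at the same time, gave 5p ratios on both sides of 1. Over the solved entries the 5p ratios of DOX over DMSO ranged from 0.865 in let-7i to 1.14 in let-7c. With the assumed solution they ranged from 0.963 to 1.14, and 3 of 7 were below 1 either way. With it, the log2 ratios of let-7d, let-7g and let-7i were -0.008, -0.027 and -0.055. Scaling by summed reads raised all log2 ratios here by 0.061, so the side of 1 on which these 3 lay depended on the scaling. The 3p ratios ranged from 0.773 in let-7i to 2.20 in let-7g, with 2 of 7 below 1. Of the 14 member arms, 1 was past 2-fold, let-7g 3p, beside 23 of all 319 arms. Over all 319 arms, 48.3% were below 1, the median was 1.01, and the central 90% lay between 0.565 and 1.88. In 3 of 7 members the 3p ratio was above the 5p ratio, and among 88 other precursors the less abundant arm had the higher ratio in 44.3%.

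For let-7c the 5p arm had 5423 reads in DOX 22 h and 4239 in DMSO 22 h, a ratio of 1.14 (1.09 to 1.18), and its T-added form, with 698 and 459 reads, a ratio of 1.35 (1.20 to 1.52). The 5p arm of let-7e had 4156 and 3566 reads and a ratio of 1.04 (0.991 to 1.08). That of miR-98 had 974 and 844 reads and a ratio of 1.03 (0.935 to 1.13). Thus let-7c stood a little higher with DOX, and the intervals of let-7e and miR-98 included 1. The 5p arm of let-7b, with 4225 and 3589 reads, was at 1.05, and the lower end of its interval was close to 1 (1.001 to 1.09). The solved entries of let-7d were at 0.970 (0.922 to 1.02) and, with the assumed solution, at 0.995 (0.968 to 1.02). For let-7g the values were 0.876 (0.830 to 0.924) and 0.982 (0.957 to 1.01), and for let-7i 0.865 (0.836 to 0.895) and 0.963 (0.939 to 0.987), so both arms were nearer to 1 with the assumed solution, and the interval of let-7g then included 1.

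The 3p arm of let-7i was lower with DOX, with 838 reads in DOX 22 h and 964 in DMSO 22 h and a ratio of 0.773 (0.704 to 0.849). Its 2 forms did not move alike. The leading form had 762 and 808 reads, a ratio of 0.839 (0.759 to 0.927), and the form without its last T had 76 and 156, a ratio of 0.435 (0.325 to 0.573). The shorter form thus made up 16.2% of the arm in DMSO 22 h (13.9% to 18.7%), against 9.07% in DOX 22 h (7.21% to 11.2%) and 8.55% in DOX 1 h (6.74% to 10.7%). DMSO 22 h was the library that stood apart from the other 2 in this share, and their intervals did not overlap with its own. Forms of 19 bases also held most in DMSO 22 h in other 3p arms. Against DOX 22 h and DOX 1 h they held 27.5%, 19.2% and 18.8% in let-7d and 37.2%, 12.3% and 17.5% in let-7b. In let-7d they included forms with another start position, so these shares are not of a form lacking the last base alone. In let-7c they held 48.7%, 29.8% and 31.0%. In these 3p arms the DMSO 22 h interval overlapped with that of DOX 22 h or DOX 1 h. In let-7e the share was highest in DOX 22 h.
let-7i 3p, leading: gcgcaagctactgccttgct
let-7i 3p, shorter: gcgcaagctactgccttgc

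Of 56 member entries with at least 20 reads in DOX 22 h and DMSO 22 h together, 1 was at least 2-fold higher and 3 at least 2-fold lower with DOX, where over all 1216 entries 6.09% were higher and 4.85% lower. Counting only entries solved from the 22 h table alone, the numbers were 1 and 3 of 44, against 7.03% and 5.42% of 1052 entries. From both tables the members' shares were 1.79% higher, under that of all entries, and 5.36% lower, near that of all entries. The median log2 ratio was -0.05 for the 56 entries and 0.00 for all. The interval left out 1 for 15 of the 56, with 7 above 1 and 8 below, again with no share over all entries beside it.

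The entry past 2-fold on the higher side was the leading let-7g 3p form, with 23 reads in DOX 22 h and 9 in DMSO 22 h, a ratio of 2.20 (1.01 to 5.58). It had 22 reads in DOX 1 h, so DMSO 22 h was the low library of the 3. On the lower side, besides the shorter let-7i 3p form, the let-7b 5p form ending in AA had 8 and 18 reads and a ratio of 0.409 (0.149 to 0.955). The let-7b 3p form without its last base had 8 and 16 reads and a ratio of 0.458, with an interval that included 1 (0.165 to 1.10). The leading let-7b 3p form went the other way, with 57 and 27 reads and a ratio of 1.86 (1.17 to 3.09), and the 2 forms together were at 1.34 (0.901 to 2.02).

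**Figure D4:**
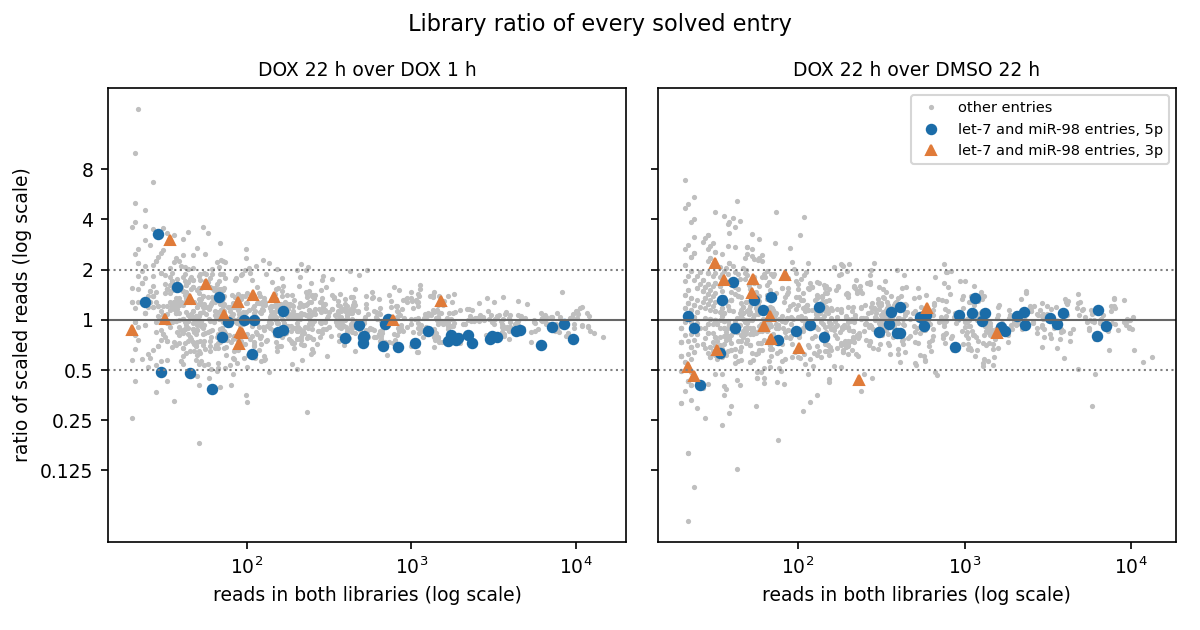
Ratio of scaled reads (y axis, log scale) against the reads of both libraries (x axis, log scale) for every solved entry with at least 20 reads, with other entries in grey, member 5p entries as circles and member 3p entries as triangles; dotted lines mark 2-fold. Above about 100 reads most circles lie just under 1 on the left and around 1 on the right, and the triangle at 0.435 and 232 reads on the right is the shorter let-7i 3p form.

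Within a library, neighbouring members could be ordered by their solved reads, with the assumed solution for let-7d. In DOX 1 h let-7e had 7496 reads and let-7b 6506, a ratio of 1.15 (1.11 to 1.19). In DOX 22 h let-7b had 4290 and let-7e 4212, and in DMSO 22 h 3632 and 3615, with ratios of 1.02 (0.976 to 1.06) and 1.00 (0.959 to 1.05). The order of these 2 members was therefore clear of counting error in DOX 1 h alone. The steps from let-7d to let-7c, from let-7c to the next member and down to miR-98 had intervals above 1 in the 3 libraries.

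Some sequences were listed under more than 1 precursor, or were closer to the leading sequence of another precursor than to that of their own. The sequence that let-7i lists as its T-added form was also listed under let-7g, with a mean of 405 there and 7896 under let-7i in the DOX table. Against the leading let-7g form it differs at the capitals.
listed under let-7g: aggtagtagtttgtGcTgttT
Such shared entries made up 0.588% of the mean of let-7g and, with 2 rare entries closer to let-7g, 16.4% of that of let-7i in the DOX table. A short form of let-7c was also listed under let-7a-1, let-7a-2 and let-7a-3.
let-7c and let-7a: aggtagtaggttgtat
It had 324 reads under let-7c in DOX 1 h, and 309, 282 and 315 under the 3 let-7a precursors, so an identical sequence was listed with unequal reads under each. Entries shared with let-7a made up 3.72% of the mean of let-7c in the DOX table. Entries of let-7b and let-7d that were closer to the leading sequence of another member made up 0.189% and 0.130% of their means, and let-7e and miR-98 had none.

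The other precursors with the let-7 seed, let-7a-1, let-7a-2, let-7a-3, let-7f-1 and let-7f-2, summed to 2.55%, 2.25% and 2.39% of the table sums at 1 h, at 22 h and in the DOX table, close to the members' shares, and miR-4458 and miR-4500 had no entry. None of their 26 entries was past 2-fold in either comparison, with a median log2 ratio of 0.02 for DOX over DMSO and -0.30 for DOX 22 h over DOX 1 h. Of 36 entries of the genomic cluster partners, a list that includes 4 of these 5 precursors, 2 were at least 2-fold lower with DOX at 22 h, 1 of miR-125b-2 and 1 of miR-99b, and none was past 2-fold between DOX 22 h and DOX 1 h, where the median log2 ratio was -0.29. These values lie beside the members' median of -0.23 and are given with no test.

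The 7 precursors that mark cardiomyocytes, miR-1, miR-133a, miR-208a, miR-208b and miR-499a among them, all had entries and held 33.5% of the summed means at 1 h, 35.2% at 22 h and 37.1% in the DOX table. Markers of smooth muscle and fibroblasts held 19.6%, 21.2% and 20.02%, nearly all of it miR-143, and miR-126, which marks endothelium, 4.41%, 3.83% and 3.24%. Markers of red cells (miR-451a and miR-144) and of white cells (miR-223 and miR-142) held at most 0.00727% and 0.00765% in any table. Between DOX 22 h and DOX 1 h the median log2 ratio was 0.13 over 73 cardiomyocyte entries and -0.01 over 60 entries of smooth muscle and fibroblasts. It was 0.20 over 16 entries of miR-126, 0.26 over 3 of red cells and 0.30 over 8 of white cells, against -0.23 for the members. These medians count each solved entry once, whatever its level, so they are not the change of a whole marker. The part of cell composition in the members' ratios was not tested.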

How the data were processed

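Small RNA libraries of 12 samples were made by the authors with a TruSeq kit and sequenced on an Illumina HiSeq. Per the labels, reads were normalized in BaseSpace Small RNA 1.0 and checked with MultiQC and FastQC, and the processing notes name hg19. Alignment by the authors was to human sequences, and they compared groups with DESeq2, whose version is not given in the sources used here. The extract protocol in the labels names 22 h for every sample, also those labelled 1 h, and the time point label was followed.

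The authors deposited 3 tables, 1 per pair of groups. Their mean is a signal, reads divided by size factors and averaged over the libraries of the table, and it was the only deposited column used. The other columns hold the authors' group values, log2 fold changes, standard errors, p-values and adjusted p-values, and none was used. Depth per library is unknown. In the tables for 1 h and 22 h the means had lost the decimal mark; the third table kept it, and its value for an entry set the power of 10, which restored 1506 of 1610 and 1323 of 1335 means. Of the members, 10 entries at 1 h stayed without a mean.

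Means of the 22 h table equal (731 × DOX 22 h reads + 822 × DMSO 22 h reads) over a constant, and those of the DOX table (9 × DOX 22 h reads + 7 × DOX 1 h reads) over a constant, within 6.6e-07 of a whole number. The DOX 22 h reads solved at 22 h left whole reads for DOX 1 h in the DOX table in 1052 of 1052 entries with 1 solution at 22 h. Under any other pairing of the libraries at most 132 entries did so. The DOX table alone gave 0 entries with 1 solution and at least 20 reads, so reads were solved from both tables, which had been listed as an alternative. Ratios used the size factors, 0.5 added reads and 95% Clopper-Pearson intervals, with Python 3.11.15 and scipy 1.17.1. No model was fitted and no p-value was computed. Recovery was tested on simulated data.

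Entries named were the leading form of each arm, entries past 2-fold in a comparison, and the most abundant shared entry of let-7c, let-7g and let-7i. The entries of let-7b and let-7d closer to another member were given as shares only. The added-base forms of let-7c and let-7i, the let-7b entries whose interval included 1, miR-125b-2 and miR-99b were named after their values were seen. The arm ratios of let-7a and let-7f precursors were also added after their values were seen. No table of mature miRNA sequences was used, so closeness was judged against the leading sequences in the tables. Members, lists and tests were chosen with earlier results of these data known.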

Additional observations from a re-analysis of the deposited data

How the results depend on the processing

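No paired analysis was possible because the tables hold no value per replicate at 1 h and 1 library a side at 22 h and in the DOX table, and leaving out each replicate could not be run for the same reason. The share of the summed means held by the members, 2.75% at 1 h, 2.39% at 22 h and 2.51% in the DOX table, became 2.60%, 2.25% and 2.37% without entries listed under more than 1 precursor, 2.67%, 2.32% and 2.44% with these split evenly, and 1.92%, 1.67% and 1.77% with the most abundant entry of each arm only. It was 2.53% in the DOX table with only entries that have a mean in all 3 tables, and 2.77% at 1 h with the missing powers of 10 taken from the median of the arm.

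From the 22 h table alone, and from both tables together, 1 member entry was at least 2-fold higher with DOX and 3 lower. With at least 50 reads the counts were 0 and 1, and with a limit of 1.5-fold 5 and 6, under both recoveries. Between DOX 22 h and DOX 1 h, the DOX table alone gave 0 higher and 0 lower, since it solved no entry with enough reads, and both tables together gave 2 and 3. From both tables, at least 50 reads gave 0 and 1, and a limit of 1.5-fold gave 4 higher. The other alternatives (at least 10 reads, 1 or no added reads, and scaling by summed reads or by the median ratio) kept each count within 1.5 times. The scalings moved all log2 ratios by at most 0.06. This was enough to carry arm ratios and interval ends close to 1 across it. Examples are the 5p ratios of let-7d, let-7g and let-7i at 22 h, with the assumed solution. The solutions limited to a range, and the alternatives for reads from both tables, were chosen after seeing the data. The intervals cover counting error only, and no difference between libraries has a replicate check.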
